A study of Mus musculus with 6 samples.

Results

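The genes described here are 9 members of the Hedgehog signalling pathway: the ligand genes Shh and Ihh, the receptor and co-receptor genes Ptch1, Smo and Boc, the inhibitor gene Hhip, and the transcription factor genes Gli1, Gli2 and Gli3. They were chosen by name from the pathway, as array rows annotated to exactly 1 of these symbols. Each of the 9 had 1 such row, among 19938 genes measured in all. RNA came from the intestine of E14.5 mouse embryos, a stage ahead of villus formation, from segments about 1.5 cm in front of the cecum. The deleted group carried the genotype Klf5D/D and is labelled a knockout of Klf5, the gene of a zinc-finger transcription factor of epithelia. The control group was Klf5wt/wtShhEGFP/Cre+, wild-type for Klf5 and carrying an EGFP/Cre allele of Shh. Each group held 3 arrays, each array held RNA pooled from 2 intestines, and the strain of all embryos was given as mixed and part C57Bl/6. As background, the ShhEGFP/Cre allele places Cre under the control of the Shh locus, which is active in gut epithelium, and disrupts the Shh copy that carries it. The label of the deleted embryos does not name a Cre allele, and the sources used here do not say whether they carried it. The comparison asked which genes changed in the Klf5-deleted group. Here it asked whether the ligand genes of the epithelium and the receptor and target genes of the mesenchyme moved in the same direction.

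Hedgehog signalling in the fetal gut runs from epithelium to mesenchyme. The epithelium secretes the ligands SHH and IHH. In the mesenchyme these bind PTCH1, which otherwise holds the membrane protein SMO inactive, and the GLI transcription factors then act on target genes. Ptch1, Hhip and Gli1 are themselves targets and are widely used as a readout of the pathway, and PTCH1 and HHIP also bind ligand and so limit its reach.

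The ligand genes fell in the Klf5-deleted intestine, and 6 of the other 7 genes rose. Of these calls, those of Ihh, Hhip, Boc, Gli3 and Gli1 were kept on leaving out any 1 array, whereas that of Shh was lost each time (adjusted p = 0.0511 to 0.0946 with limma), as was that of Gli2, and that of Smo was lost in 5 of the 6 fits. Ihh fell to 50.3% of the control level (95% interval 42.9% to 59.1%, n = 3 arrays per group) and Shh to 85.5% (77.9% to 93.9%). Hhip rose to 156% of control (141% to 172%), Boc to 138% and Gli3 to 129%, and Gli1, Smo and Gli2 rose by smaller amounts. Ptch1 was at 107% of control (98.4% to 116%) and did not pass the test. The test was limma's moderated test on log2 signals with Benjamini-Hochberg adjustment over all 19938 genes and a threshold of 0.05. By this rule 8.95% of all genes were called higher and 8.58% lower, against 6 and 2 of the 9 genes here. Counts of genes that rose or fell are counts of genes called higher or lower. The groups did not overlap for 8 of the 9 genes, and for 36.0% of all genes. All 9 rows were brighter than the median gene. Among the 6537 genes at least as bright as the dimmest of them, 12.8% were called higher, 11.5% were called lower and 52.8% had groups that did not overlap. The median log2 change was 0.20 over the 9 genes and 0.02 over all genes.

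**Figure D1:**
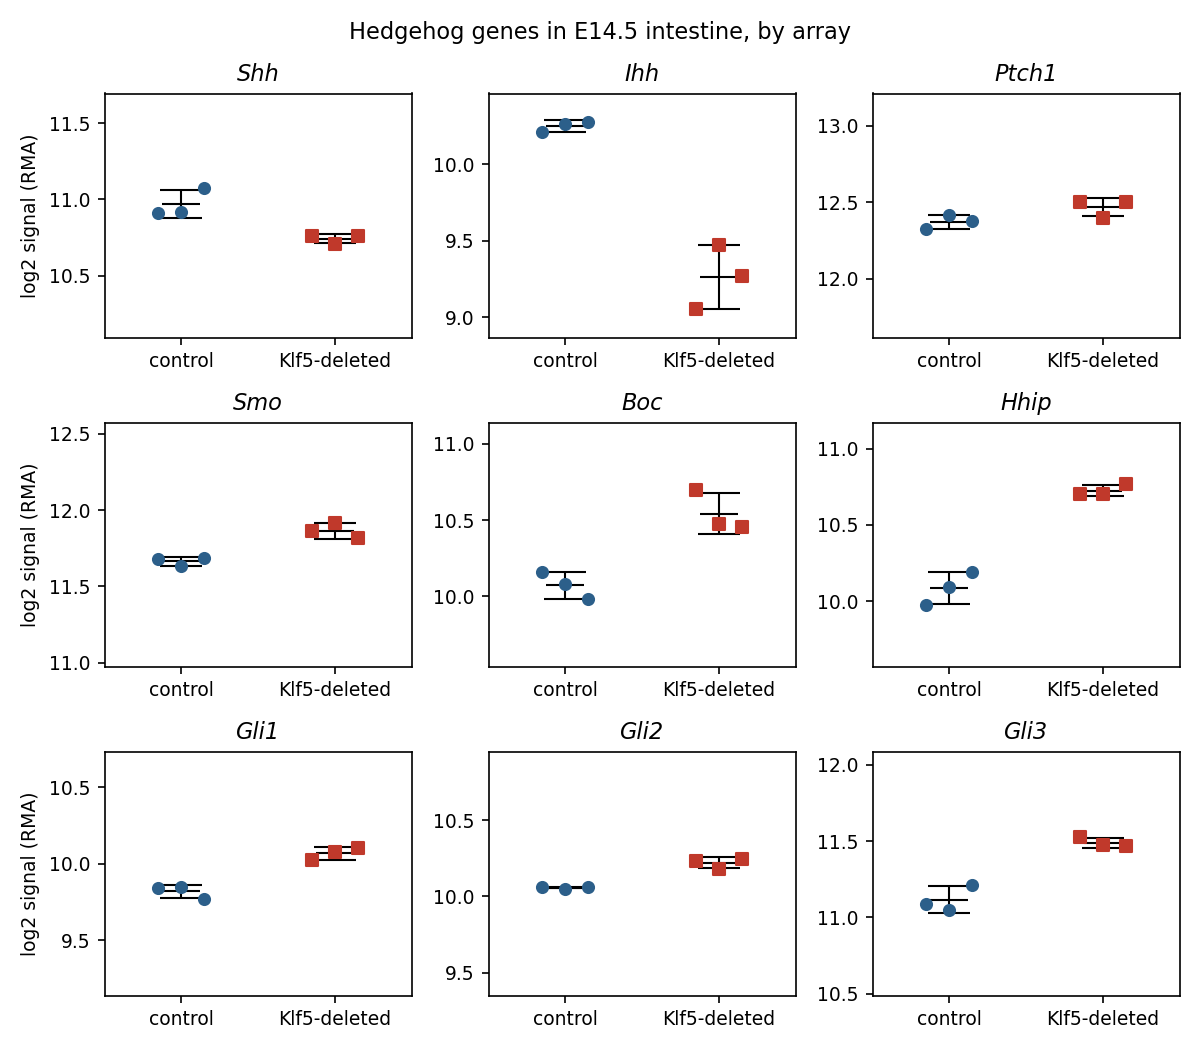
Log2 signal of the 9 genes on each array (y axis, RMA log2 units, each panel with the same span) in control (blue circles) and Klf5-deleted intestine (red squares), with the mean and SD of 3 arrays as bars. Shh and Ihh lie lower in every Klf5-deleted array than in any control, 6 genes lie higher, and Ptch1 overlaps.

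On the 3 Klf5-deleted arrays Klf5 itself read 10.2, 10.5 and 10.3, against control values of 11.5, 11.7 and 11.8, a fall to 39.8% of the control level. Array medians lay between 7.81 and 7.89. The intestinal epithelial genes Cdx2 and Vil1, named after their values were known, read 11.5 and 11.0 on average in the controls and 10.9 and 9.56 in the deleted arrays. The pools of the groups also differed in sex. Xist, an RNA of the inactive X chromosome, read 5.89 to 6.47 in the deleted arrays and 11.9 to 12.6 in the controls. The male share of each pool was taken from the signals of Eif2s3y, Kdm5d and Uty. Its scale set the average of the deleted arrays to 100% and the lowest array, control replicate 1, to 0%. On this scale the share was 95% to 103% in the deleted arrays and 47.1% and 40.8% in control replicates 2 and 3. With this share as a covariate, 0 of the 9 genes passed limma's test (adjusted p = 0.185 to 0.974). At an unadjusted p under 0.05, Ihh was lower and Hhip and Boc higher in that fit. The median standard error was 2.48 times as large there, and 8 of the 9 genes kept the sign of their change. Sex and Klf5 genotype can therefore be told apart only in part for every difference given here.

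Markers of several cell types moved with the groups as well, those of epithelium and mesothelium most. Of 21 measured pan-epithelial markers, 20 fell, with a median log2 change of −0.85, and their summed signal on the linear scale was 29105 to 34044 in the deleted arrays and 52204 to 54926 in the controls. The counts of markers that rose stand beside 8.95% of all genes called higher, or 12.8% of the bright genes given above. Of 17 mesenchyme markers 4 rose, with a median of 0.12 and a summed signal of 69874 to 75151 against 64916 to 67509. A change above 0 was found for 16 of the 17, against 57.7% of all genes. By limma 10 of the 17 were higher at an unadjusted p under 0.05. The groups did not overlap for 9 of them, beside 36.0% of all genes and 52.8% of the bright genes. Of 7 mesothelial markers 6 rose and 1 fell, with summed signals of 8113 to 10800 against 5021 to 6686. Of 10 smooth muscle markers 1 rose, a share near that of all genes (median 0.01, overlapping summed signals of 47143 to 50201 against 46982 to 49904). Of 8 markers of enteric neurons and glia 2 rose (median 0.16, 12918 to 14384 against 11511 to 12177). None of 8 endothelial markers passed limma's test, 1 of them was higher at an unadjusted p under 0.05, and their median was 0.14 (12105 to 15162 against 12207 to 12706). These are bulk samples, in which fewer cells of a type and less RNA per cell cannot be told apart. The part of these cell type markers in the changes of the Hedgehog genes was not tested.

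Of the ligand genes, Ihh changed most. Ihh, which encodes the ligand Indian hedgehog, read 9.05, 9.47 and 9.27 on the deleted arrays, in the order of their replicate numbers, and 10.2, 10.3 and 10.3 on the controls. All 3 deleted arrays were lower than every control, with a gap of 0.74 on the log2 scale between the groups, and the deleted arrays were the more spread of the 2 groups (SD 0.21 against 0.04). By limma the log2 signal of Ihh fell by 0.99 (SE 0.10, adjusted p = 7.17e-04), and only 1.18% of all genes ranked as low. Leaving out each array in turn gave changes between −1.09 and −0.88, all of them called.

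Shh, which encodes sonic hedgehog, moved far less. It read 10.8, 10.7 and 10.8 in the deleted arrays and 10.9, 10.9 and 11.1 in control replicates 1 to 3. The groups did not overlap, but their gap of 0.15 was close to the range of 0.16 among the controls. By limma its log2 signal fell by 0.23 (SE 0.06, adjusted p = 0.0344), a call that no fit with 1 array left out kept. The adjusted p was then 0.0648, 0.0946 and 0.0856 without Klf5-deleted replicate 1, 2 or 3, and 0.0511, 0.0644 and 0.0789 without control replicate 1, 2 or 3. The sources used here do not place the array's Shh probes relative to the EGFP/Cre insertion.

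The log2 change of Ihh minus that of Shh was −0.77 (SE 0.14), and the array-wise difference between these genes did not overlap between the groups (exact two-sided permutation p = 0.1, the smallest that 3 arrays against 3 allow, and 0.1 after adjustment over the 4 pairs of genes compared). Against the pan-epithelial markers, 7 of the 21 fell further than Ihh and 20 of the 21 fell further than Shh. Ihh was thus near the middle of the epithelial markers and Shh near their upper end. The genes whose profile over the 6 arrays lay nearest to that of Ihh were Cdh1, the gene of the epithelial junction protein E-cadherin (root mean square distance 0.04 log2 units between mean-centred values), Aldh1l1 (0.05) and Stambpl1 (0.05). Cdh1 is also among the pan-epithelial markers, and it fell by 0.94 (SE 0.10). Shh, at a distance of 0.41, came at rank 1540 in this order.

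**Figure D2:**
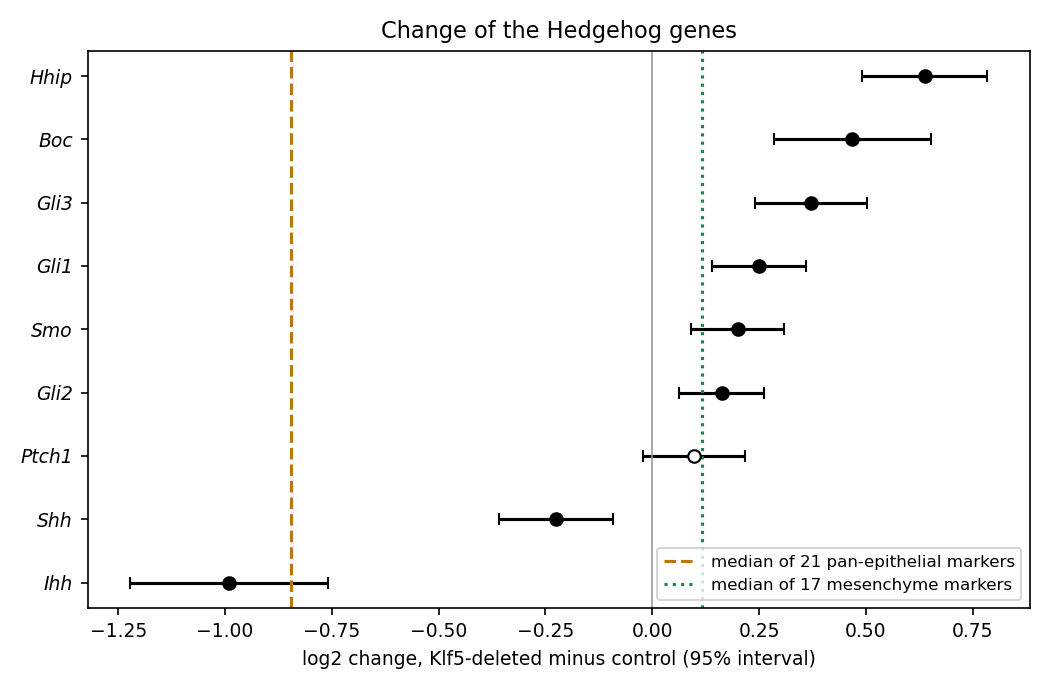
Log2 change of each gene (x axis, Klf5-deleted minus control, points with 95% intervals from limma, filled where the adjusted p was under 0.05), with the medians of 21 pan-epithelial markers (dashed, −0.85) and 17 mesenchyme markers (dotted, 0.12). The interval of Ihh covers the epithelial median and that of Shh lies wholly above it, while the intervals of Hhip, Boc, Gli3 and Gli1 lie wholly above the mesenchyme median.

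RefSeq promoter windows of assembly GRCm38.p6 matched 6 of the 9 genes by symbol. The 250 bases before the annotated start are shown for the ligand gene that fell furthest, Ihh (chr1:74951673-74951922, minus strand), and for 2 of the genes that rose, Hhip (chr8:80058009-80058258, minus strand) and Gli3 (chr13:15463473-15463722, plus strand), since these are the clearest movers of each direction with a window. Capitals mark matches, on either strand and with overlaps counted, to CCNCNCCC, a GC-rich sequence of the kind that Krüppel-like factors bind.
Ihh: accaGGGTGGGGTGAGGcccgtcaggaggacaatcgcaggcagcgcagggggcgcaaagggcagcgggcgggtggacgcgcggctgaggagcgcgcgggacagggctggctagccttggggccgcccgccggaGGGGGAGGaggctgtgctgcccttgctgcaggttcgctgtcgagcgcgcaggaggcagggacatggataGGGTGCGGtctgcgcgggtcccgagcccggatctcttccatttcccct
Hhip: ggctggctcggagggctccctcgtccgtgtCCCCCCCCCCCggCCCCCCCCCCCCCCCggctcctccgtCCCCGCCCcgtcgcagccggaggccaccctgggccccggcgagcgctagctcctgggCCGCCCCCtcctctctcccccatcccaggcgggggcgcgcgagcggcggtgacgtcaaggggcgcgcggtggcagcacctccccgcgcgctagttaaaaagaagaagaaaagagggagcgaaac
Gli3: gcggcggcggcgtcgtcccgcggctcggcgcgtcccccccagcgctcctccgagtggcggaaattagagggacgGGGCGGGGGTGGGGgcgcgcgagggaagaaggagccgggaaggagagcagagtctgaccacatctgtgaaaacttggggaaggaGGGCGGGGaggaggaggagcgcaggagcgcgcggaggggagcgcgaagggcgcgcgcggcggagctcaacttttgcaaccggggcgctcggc
All 3 windows are rich in G and C (72.0%, 76.0% and 72.8% of their bases). The Ihh and Gli3 windows each held 4 matches, all on the reverse strand, and the Hhip window held 14 on the forward strand, most of them overlapping within runs of C. A match was present in the windows of all 6 genes, whether the gene rose, fell or did not pass, and in 45.9% of the 32851 windows of all genes. The GLI site GACCACCCA was found on neither strand of the 6 windows and in 0.225% of all windows. A match describes letters in this window and not a bound site.

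The receptor genes rose or did not pass. Ptch1, the gene of the ligand receptor and a pathway target, read 12.5, 12.4 and 12.5 in the deleted arrays and 12.3, 12.4 and 12.4 in the controls. These overlapped, since Klf5-deleted replicate 2 lay below control replicate 2. The log2 change of Ptch1 was 0.10 (SE 0.05, 95% interval −0.02 to 0.22, adjusted p = 0.259 with limma), so that levels from 98.4% to 116% of control lie within the interval. With the male share as covariate the change of Ptch1 was −0.01.

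Smo, which encodes the membrane protein that passes the signal on, read 11.9, 11.9 and 11.8 in the deleted arrays and 11.7, 11.6 and 11.7 in the controls, without overlap. By limma its log2 signal rose by 0.20 (SE 0.05, adjusted p = 0.0253). The call was kept without Klf5-deleted replicate 3 (adjusted p = 0.0427) and lost without Klf5-deleted replicate 1 or 2 (0.0580 and 0.0732) and without control replicate 1, 2 or 3 (0.0592, 0.0937 and 0.0632). Boc, which encodes a co-receptor that presents ligand to PTCH1, read 10.7, 10.5 and 10.5 in the deleted arrays and 10.2, 10.1 and 9.98 in the controls. The lowest deleted array was 0.30 above the highest control. Boc rose by 0.47 (SE 0.08, adjusted p = 0.00708 with limma), and it was called on leaving out any 1 of the 6 arrays.

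Hhip, the gene of a membrane protein that binds ligand and a target of the pathway, had the largest rise of the 9 genes. It read 10.7, 10.7 and 10.8 in the deleted arrays and 9.98, 10.1 and 10.2 in the controls. The deleted arrays agreed closely (SD 0.04), the controls were more spread (SD 0.11), and the gap between the groups was 0.51. By limma the log2 signal of Hhip rose by 0.64 (SE 0.06, adjusted p = 6.51e-04), above 99.4% of all genes, and leaving out each array in turn gave 0.58 to 0.69, all called. With the male share as covariate the change was 0.41 (adjusted p = 0.284). The profiles nearest to that of Hhip were those of Fat4 (distance 0.05 log2 units), Cdh19 (0.05) and Dtna (0.05), which rose by 0.57, 0.60 and 0.58.

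The changes of the targets that serve as a pathway readout were set against each other in pairs. The change of Hhip exceeded that of Ptch1 by 0.54 on the log2 scale (SE 0.06) and that of Gli1 by 0.39 (SE 0.08), and Gli1 exceeded Ptch1 by 0.15 (SE 0.06). For each of these pairs the array-wise difference did not overlap between the groups, with a gap of only 0.005 for Gli1 and Ptch1 (exact two-sided permutation p = 0.1 for each, also after adjustment over the 4 pairs). With 3 arrays against 3 this is the smallest p possible, so none of these differences could pass 0.05.

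Among the Gli genes, Gli1 encodes an activator, and GLI2 and GLI3 are made as full-length proteins that can be cut to repressors, GLI3 being the main repressor. Gli1 read 10.02, 10.08 and 10.10 in the deleted arrays and 9.84, 9.85 and 9.77 in the controls. The groups were apart by 0.18, and Gli1 rose by 0.25 (SE 0.05, adjusted p = 0.0108 with limma), a call kept on leaving out any 1 of the 6 arrays (adjusted p at most 0.0435). Gli3 read 11.5 on each deleted array and 11.1, 11.0 and 11.2 on the controls. It rose by 0.37 (SE 0.06, adjusted p = 0.00444 with limma) and was likewise called without any 1 array. Gli2 read 10.2 on each deleted array and 10.1 on each control, with a spread of only 0.01 among the controls. It rose by 0.16 (SE 0.04, adjusted p = 0.0380 with limma). That call was lost without Klf5-deleted replicate 1, 2 or 3 (adjusted p = 0.0923, 0.0519 and 0.122) and without control replicate 1, 2 or 3 (0.0870, 0.115 and 0.0955).

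Ordered by change, the genes ran from Hhip through Boc, Gli3, Gli1, Smo, Gli2, Ptch1 and Shh to Ihh. The 95% intervals of neighbours overlapped from Hhip to Ptch1, whereas that of Shh lay wholly below that of Ptch1, and that of Ihh wholly below that of Shh. Of the 17 mesenchyme markers, none had a higher value than Hhip or Boc, 2 had a higher value than Gli3, 4 than Gli1, 5 than Smo, 7 than Gli2 and 10 than Ptch1. Hhip, Boc and Gli3 therefore stood at or near the top of these mesenchyme markers, and Gli2 and Ptch1 among them. The 7 mesothelial markers reached higher, with a median of 0.64 and a highest change of 1.05.

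Of 61 other measured genes of the pathway, 19 rose and 1 fell, with a median log2 change of 0.13, against 8.95% of all genes called higher and 8.58% lower. A change above 0 was found for 49 of the 61, against 57.7% of all genes. Without control replicate 2 or 3, 12 of the 61 rose. The cell type markers outside the epithelium had medians of similar size. These were 0.12 for mesenchyme (16 of 17 above 0), 0.14 for endothelium (8 of 8) and 0.16 for enteric neurons and glia (6 of 8). The smooth muscle median was 0.01 (5 of 10 above 0) and the mesothelial median 0.64 (6 of 7). Whether the pathway genes moved apart from such markers was not tested. Of 10 genes of ligand making and release, 2 rose: Scube3, whose protein belongs to a family that releases ligand from cells, by 0.80 (SE 0.10, adjusted p = 0.00176 with limma), and the glypican gene Gpc6 by 0.18 (adjusted p = 0.0499). Scube3 read 9.59, 9.21 and 9.33 in the deleted arrays and 8.65, 8.57 and 8.50 in the controls, a larger rise than that of any of the 9 genes. Disp1, whose protein releases ligand from the epithelium, was at 0.25 (adjusted p = 0.0582), and is named here with its values already known. Of 3 other receptor genes, 2 rose, Lrp2 by 0.47 (SE 0.07) and the co-receptor gene Gas1 by 0.35 (SE 0.08). The co-receptor gene Cdon was at −0.01 (SE 0.15, adjusted p = 0.975).

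Against the same 8.95% of all genes called higher, 4 of 19 genes of signal transduction rose: Stk36 by 0.35, Prkacb, which encodes a catalytic subunit of the GLI kinase protein kinase A, by 0.24, Gpr161, a ciliary receptor that restrains the pathway, by 0.25, and Evc, whose protein acts with SMO at the cilium, by 0.19. The inhibitor gene Sufu was at 0.18 (SE 0.05, adjusted p = 0.0545) and is likewise named with its values known. Hedgehog signals pass through the primary cilium, and of 15 genes of that organelle 6 rose, again beside 8.95% of all genes. These included the motor gene Dync2h1 (0.38, SE 0.05), the transport genes Ift172 (0.29) and Ift80 (0.34), and Tmem67 (0.34), and the median of the 15 was 0.13.

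Of 14 genes known as Hedgehog targets or Hedgehog-responsive genes of gut mesenchyme, 5 rose and 1 fell, beside 8.95% and 8.58% of all genes, with a median of 0.15. Foxf1, a forkhead factor of gut mesenchyme, rose by 0.25 (SE 0.05, adjusted p = 0.00976 with limma), Nkx3-2 by 0.40 (SE 0.07) and the smooth muscle coactivator gene Myocd by 0.35 (SE 0.05). Mycn, the gene of a growth regulator, fell by 0.31 (SE 0.06, adjusted p = 0.00902 with limma). The targets Bmp4 (−0.15, SE 0.07, adjusted p = 0.202) and Foxl1 (−0.06, SE 0.05, adjusted p = 0.557) did not pass, and were picked for mention with their values known. Of the 20 called genes of these lists, 11 kept their call on leaving out any 1 of the 6 arrays and 9 lost it at least once. Among those named, the latter were Gpc6, Gas1, Gpr161, Evc, Ift80 and Tmem67, with highest adjusted p values of 0.161, 0.0834, 0.0849, 0.0913, 0.0536 and 0.0955.

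**Figure D3:**
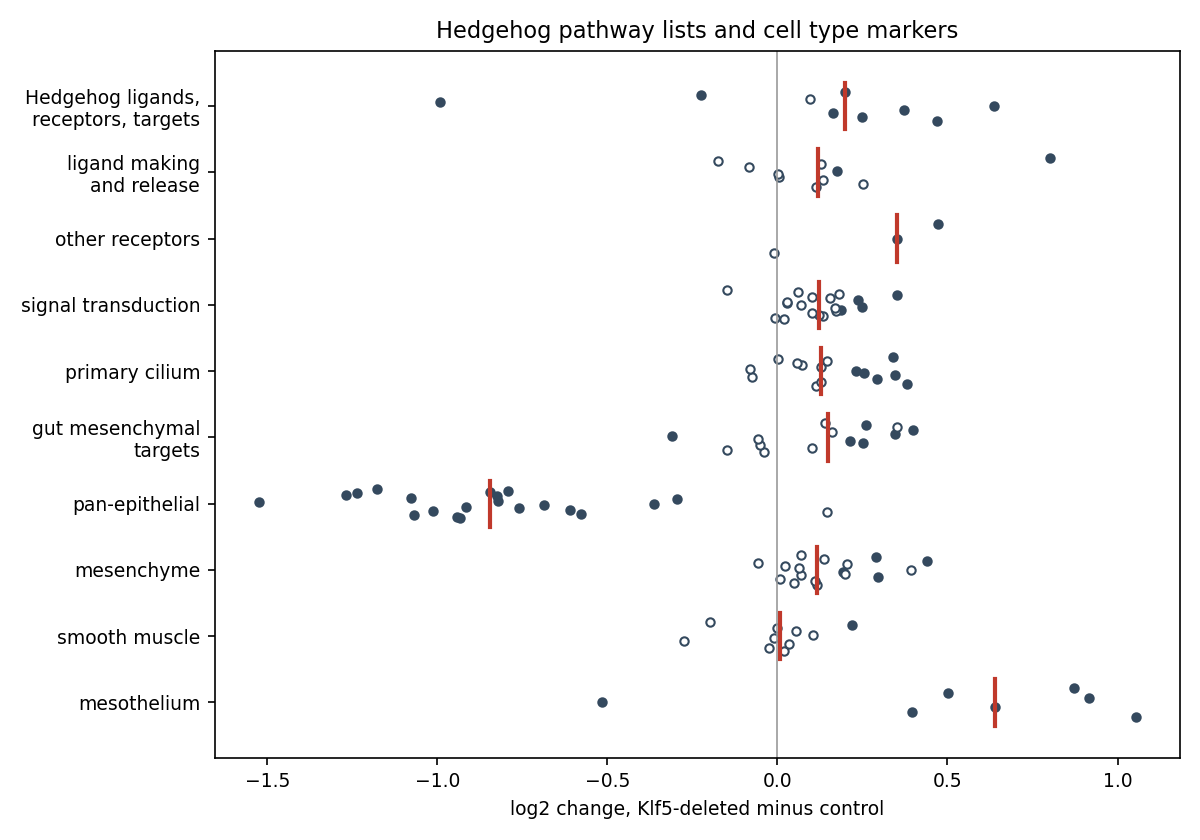
Log2 change (x axis, Klf5-deleted minus control) of every measured gene of the Hedgehog lists and of 4 cell type marker lists (rows), filled where the adjusted p was under 0.05, with the median of each list as a red line. Medians of the 5 lists of other pathway genes lie between 0.12 and 0.35, that of the pan-epithelial markers at −0.85 and that of the mesothelial markers at 0.64.

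**Figure D4:**
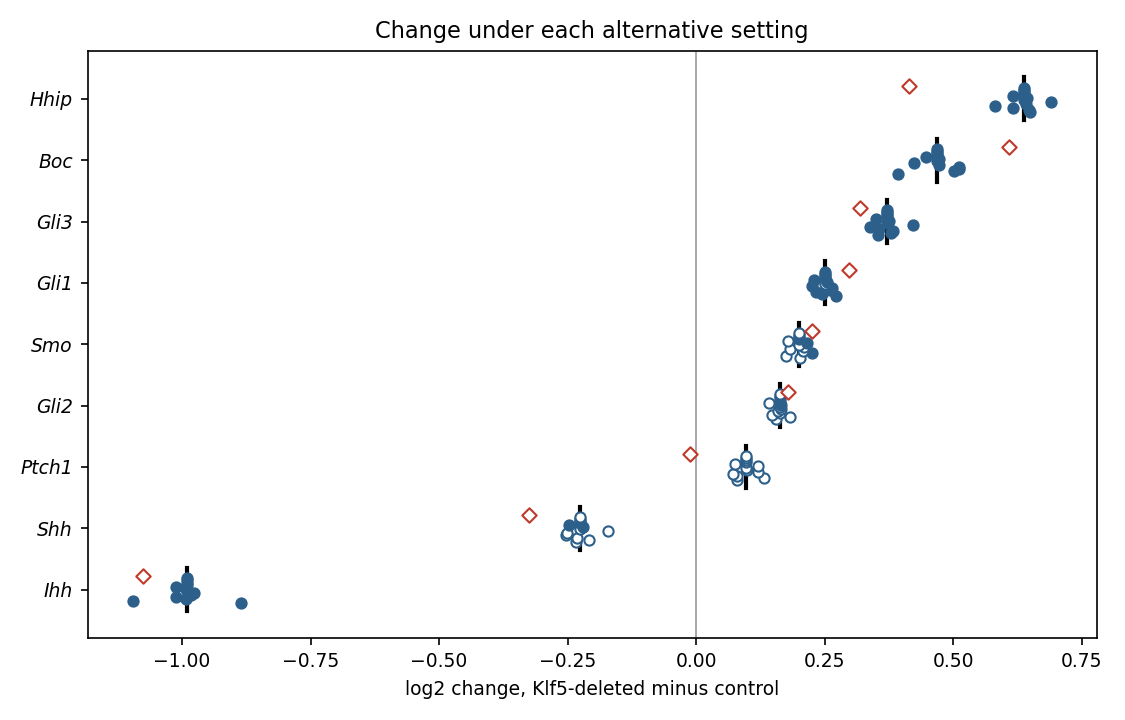
Log2 change of each gene (x axis) in the fit given above (black line) and under 14 alternatives (points, filled where the adjusted p was under 0.05), with red diamonds for the fit that had the pools' male share as covariate. Hhip, Boc, Gli3 and Ihh are filled under all alternatives except that covariate, and Ptch1 under none.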

How the data were processed

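RNA from 6 pools of 2 embryonic intestines each, 3 Klf5-deleted and 3 control, was measured on Affymetrix Mouse Gene 1.0 ST arrays. The deposited values are log2 signals that the authors made with RMA, in version 1.1 of Affymetrix Expression Console according to the submitters' processing notes. RMA makes array distributions alike, which removes any shift shared by most genes, and it compresses changes of dim genes. Build and array annotation: not given in the sources used here.

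Of 35557 rows, 21789 had 1 gene symbol, updated by gene ID to RefSeq (GRCm38.p6) for 21698, 1621 had several and 12147 are unnamed here. The brightest row of each gene gave 19938 genes. Groups came from the sample titles and limma 3.58.1 (R 4.3.3; lmFit, eBayes, Benjamini-Hochberg adjustment over all genes, threshold 0.05) compared them, after checks on simulated data. The members, gene lists and tests were chosen with earlier results of these data known. Named of each pathway list were the up to 4 called genes with the smallest p, and for Ihh and Hhip the 3 nearest profiles. Of 65 pathway genes 61 were measured, and the others were not analysed here.

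Alternatives were each array left out, a block for the replicate number, quantile normalization, median centring, leaving out the 50% of genes with the lowest means, robust variance with an intensity trend, a gene's rows averaged, each row tested separately, and the male share of the pools as covariate. The sources used here do not say whether the pools came from separate litters, so p-values cover only the spread among these pools. Arrays have no read depth, and their number limits the precision.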

Additional observations from a re-analysis of the deposited data

How the results depend on the processing

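Of 126 values of the 9 genes under 14 alternatives, 91 kept their direction and their side of the threshold, 34 kept only the direction and 1 changed sign (Ptch1, −0.012 with the pools' male share as covariate). Over all genes, 1785 were called higher and 1711 lower. On leaving out 1 array these counts were 868 to 1363 and 1132 to 1394. They were 900 and 1108 with the replicate number as a block, and 4 and 79 with the male share as covariate. With arrays centred on their median they were 1216 and 1767. Of the 9 genes, 6 rose and 2 fell, against 4 to 5 and 1 on leaving out 1 array, and 3 and 1 with the replicate block, under which Shh, Gli1, Gli2 and Smo lost their calls. With all rows tested on their own, 4 rose and 1 fell, and Shh, Gli2 and Smo lost their calls. Of the other pathway genes, 19 rose and 1 fell, against 12 to 15 rising on leaving out 1 array, 10 with the replicate block and 11 with all rows tested on their own. With the male share as covariate, 0 of the 9 genes and 0 of the 61 others passed limma's test in either direction, and 2 and 7 were higher and 1 and 1 lower at an unadjusted p under 0.05. The cause of these differences was not tested. The replicate numbers did not pair the arrays: deviations of same-numbered arrays from their group means correlated at −0.14, −0.27 and −0.03 across genes. Gli2 and Smo also lost their calls under median centring.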
